A study of Caenorhabditis elegans with 2 samples.

Results

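Genes for small nucleolar RNAs (snoRNAs) that carried a ChIP-seq summit of tagged TTX-3 were examined in late embryos of the nematode Caenorhabditis elegans. A gene was taken when at least 1 summit of the authors' pooled peak list lay inside it or within 100 bp of it. Of the 346 nuclear snoRNA genes in the Ensembl annotation of the WBcel235 genome, 110 met this rule, and the other 236 served for comparison. All nuclear genes of the annotation numbered 46890. The 110 genes were thus chosen by pooled peak signal, so their signal and their number are given as a description and were not tested.

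The material was whole hermaphrodite late embryos of strain OP68 (unc-119(ed3) III; wgIs68), taken 4 hours after egg bleaching had synchronized the worms. This stable transgenic line makes TTX-3 with a GFP-FLAG tag at its C terminus, and chromatin was recovered with an antibody against GFP. There were 2 biological replicates in 1 group, with no second genotype, age or treatment. The alignment that served both replicates as control was not analysed here. The deposited lists hold no read counts, so the depth is unknown. Cell types cannot be told apart in whole embryos. The signal of a summit is the authors' own value. It has no stated scale between lists, so ratios between the replicate lists are given only as deposited.

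snoRNAs guide the chemical modification of ribosomal and spliceosomal RNA. Box C/D snoRNAs carry a C box near the 5' end and a D box near the 3' end and direct ribose methylation, and box H/ACA snoRNAs end in an ACA tail and direct pseudouridylation. In animals many are cut from introns of host genes, and others are transcribed from promoters of their own, in worms in part by RNA polymerase III. RNA polymerase III reads tRNA genes through an A box and a B box, which TFIIIC binds, and it stops at a run of T. TTX-3 is a LIM homeodomain factor of the AIY interneurons, and such factors bind sites with the core TAATTA.

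The letters of both tRNA-type boxes were found upstream of 24 of the 50 genes with a summit in the authors' optimal list. The 6 lines below were picked for having both boxes, and are the strongest by pooled signal that did. Each runs 5' to 3' on the strand of the gene, from 120 bases before the gene to its base 20, and the capitals mark the A box and then the B box. Sequences are from the RefSeq copy of WBcel235, whose coordinates are those of the ce11 peak lists.
W03C9.9, chrII:11960778-11960917, plus strand: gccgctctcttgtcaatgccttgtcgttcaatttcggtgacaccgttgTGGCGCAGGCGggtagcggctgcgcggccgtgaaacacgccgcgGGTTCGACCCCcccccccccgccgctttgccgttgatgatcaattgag
T03F7.8, chrV:11314138-11314277, plus strand: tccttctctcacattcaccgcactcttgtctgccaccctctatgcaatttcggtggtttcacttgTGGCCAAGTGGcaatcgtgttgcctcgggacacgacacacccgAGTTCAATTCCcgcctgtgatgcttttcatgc
Y43F8C.22, chrV:19643168-19643307, minus strand: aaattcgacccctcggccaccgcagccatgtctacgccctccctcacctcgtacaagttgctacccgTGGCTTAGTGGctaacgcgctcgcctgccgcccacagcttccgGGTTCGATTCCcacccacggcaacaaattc
C46C2.8, chrIV:9191314-9191453, minus strand: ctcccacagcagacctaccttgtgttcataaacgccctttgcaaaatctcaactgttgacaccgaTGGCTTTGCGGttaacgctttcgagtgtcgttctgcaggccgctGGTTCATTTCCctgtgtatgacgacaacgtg
D1046.6, chrIV:8927145-8927284, plus strand: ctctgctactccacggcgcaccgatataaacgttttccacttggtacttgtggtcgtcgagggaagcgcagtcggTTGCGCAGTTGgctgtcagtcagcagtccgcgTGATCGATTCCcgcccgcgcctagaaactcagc
C10C6.8, chrIV:11474172-11474311, minus strand: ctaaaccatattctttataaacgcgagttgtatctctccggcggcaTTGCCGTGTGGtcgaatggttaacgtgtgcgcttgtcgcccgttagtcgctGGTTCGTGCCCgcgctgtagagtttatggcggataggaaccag
The A box was spelled TGGCNNAGTGG and the B box GGTTCGANTCC, with up to 2 letters of each allowed to differ. Y43F8C.22 matched both spellings without a difference and T03F7.8 matched the A box in full. Each letter is the commonest at that place in the 612 nuclear tRNA genes, at bases 8 to 18 for the A box and at bases 22 to 12 from the last for the B box, with N where no letter reached 50%. The choice of these boxes, the allowance and the window was made after upstream sequences of the snoRNA genes had been seen.

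The genes with a summit fell into a strong and a weak set. A summit of the authors' optimal list, which passed their irreproducible discovery rate (IDR) filter, lay at 50 of the 110 genes. The other 60 had only weaker pooled summits. All 700 optimal regions are also in the pooled list, and their lowest signal was 72.5. How the filter chose them is not stated in the sources used here. This division therefore repeats the pooled signal and may repeat the agreement of the replicates. It is used below only to order the genes. No test over genes was made, and the differences between sets below are descriptions. Pooled signal ran from 83.8 to 743 at the 50 genes, with a median of 219.8, and from 19.7 to 64.1 at the 60 genes, with a median of 32.1. The lowest gene of the strong set was Y37E3.20 and the highest of the weak set was W06H8.17. Over all nuclear summits of the pooled list the median signal was 26.9. The weak set had a median rank of 8935 by signal in that list.

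A pooled summit lay within 100 bp of 31.8% of snoRNA genes, against 24.3% of all nuclear genes. This contrast chose the genes, and nothing is read from it. An optimal summit lay within that distance of 14.5% of snoRNA genes, against 1.56% of all nuclear genes. The share was higher at tRNA genes, with 27.1%, and was 5.43% at snRNA genes and 1.48% at protein-coding genes. In the separate lists, 106 snoRNA genes had a summit in replicate 1, where 25.1% of all nuclear genes had one, and 109 in replicate 2, where 25.3% had one. Of the 10 strongest nuclear summits of the pooled list, 6 lay at snoRNA genes, as did 29 of the strongest 100 and 36 of the strongest 200. Over all nuclear summits the share at snoRNA genes was 0.403% in the pooled list and 7.55% in the optimal list. These counts use the signal that chose the genes and are a description. No strongest summit of the 110 genes lay within 100 bp of a tRNA, snRNA or rRNA gene. Many did lie near starts of protein-coding genes, from 1000 bp before to 300 bp after one. This was so at 17 of the 50 genes with an optimal summit and 23 of the 60 others. Which gene such a summit belongs to was not tested, and the share over all summits is not given here.

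**Figure D1:**
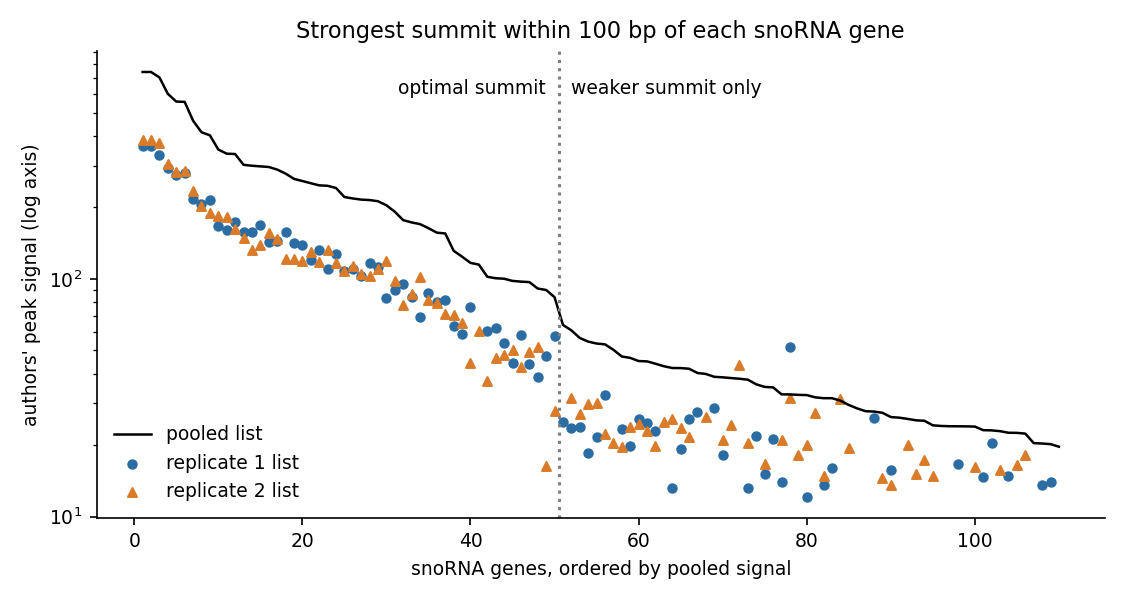
Signal of the strongest summit within 100 bp of each of the 110 snoRNA genes, on a log axis, with genes ordered by pooled signal. The line is the pooled list and the points are the replicate lists; replicate points are close together at the 50 genes left of the dotted line and are often missing at the 60 genes right of it.

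The replicates gave close values at the strong genes. C51F7.3 and C51F7.4 share the strongest summit, with a pooled signal of 743, 363 in replicate 1 and 386 in replicate 2. W03C9.9 had a pooled signal of 705, 332 in replicate 1 and 374 in replicate 2. ZK265.10 had a pooled signal of 601, 294 in replicate 1 and 305 in replicate 2. In each of these the values of the replicates lay close to each other. Across the 50 strong genes, 49 had a summit in both replicate lists, and F59C6.15 had one in replicate 2 only. The ratio of replicate 1 to replicate 2 signal had a median of 1.00 and ranged from 0.681 to 2.89, and replicate 1 was the higher at 25 of the 49. The highest ratio belonged to Y71D11A.7, with 47.2 in replicate 1 and 16.3 in replicate 2. Spearman's rho of the replicate signals was 0.957 over these 49 genes, which share their libraries and include 1 summit counted for both genes of a pair. The IDR filter that set the strong genes apart is named for reproducibility. How it treats single summits is not stated in the sources used here. Close values may have been favoured in advance and are a description.

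At the weak genes the replicates gave fewer common summits. Both replicate lists held a summit at 21 of the 60, and neither list held one at 8. Among the other snoRNA genes 4 of 236 had a summit in both lists. Spearman's rho was 0.469 over the 21 weak genes, but weak genes span a narrower range of signal than strong genes, so the 2 values are not comparable. The lowest ratio belonged to K04D7.17, with 13.2 in replicate 1 and 25.7 in replicate 2. The 3 weakest of the 110 genes were C54G4.16 with a pooled signal of 20.3, T05A6.20 with 20.2 and K09E9.5 with 19.7. K09E9.5 had no summit in either replicate list. By distance to the nearest pooled summit, the genes just inside the rule were C36E8.11 (100 bp, signal 45.0), Y32G9A.15 (95 bp, signal 39.8) and Y76B12C.11 (91 bp, signal 31.5). The strong gene W03C9.9 had a nearer summit, at 65 bp with a signal of 74.95. Its strongest summit, with 705, lay at -98 bp from the 5' end (negative is upstream), close to the limit of the rule. Just outside it, the nearest pooled summit lay 101 bp from C02F5.15 with a signal of 47.95, 104 bp from E01A2.11 with 23.0 and 115 bp from K07C10.2 with 26.2.

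Summits at the strong genes lay upstream of the gene. The strongest pooled summit lay a median of 46 bp before the 5' end, written as an offset of -46, with quartiles of -56 and -26.8. It was upstream at 43 of the 50 genes, inside the gene at 6 and past its 3' end only at B0334.12, at +123. An offset between -75 and -25 was found at 38 of the 50 genes. At the 60 weak genes the median offset was +14, and 12 fell between -75 and -25. The rule bounds the offset at 100 bp outside the gene, so the upstream side was not free to go further.

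The same place stood out within a wider limit. Among all optimal summits within 500 bp of a snoRNA 5' end, the 25-bp bins that start at -75 and at -50 held 18 each, the bin at -25 held 6, and no bin further upstream than -75 held more than 1. In the pooled list the bins at -75 and -50 held 23 and 26, and bins beyond -100 held at most 9. Replicate 1 gave a median offset of -49 over 49 strong genes and replicate 2 a median of -39.5 over 50. The summits of the replicates lay a median of 26 bp apart at these genes, which limits how finely the position can be read. At Y38F2AR.14 the summit was at -75 in replicate 1 and at +55 in replicate 2.

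**Figure D2:**
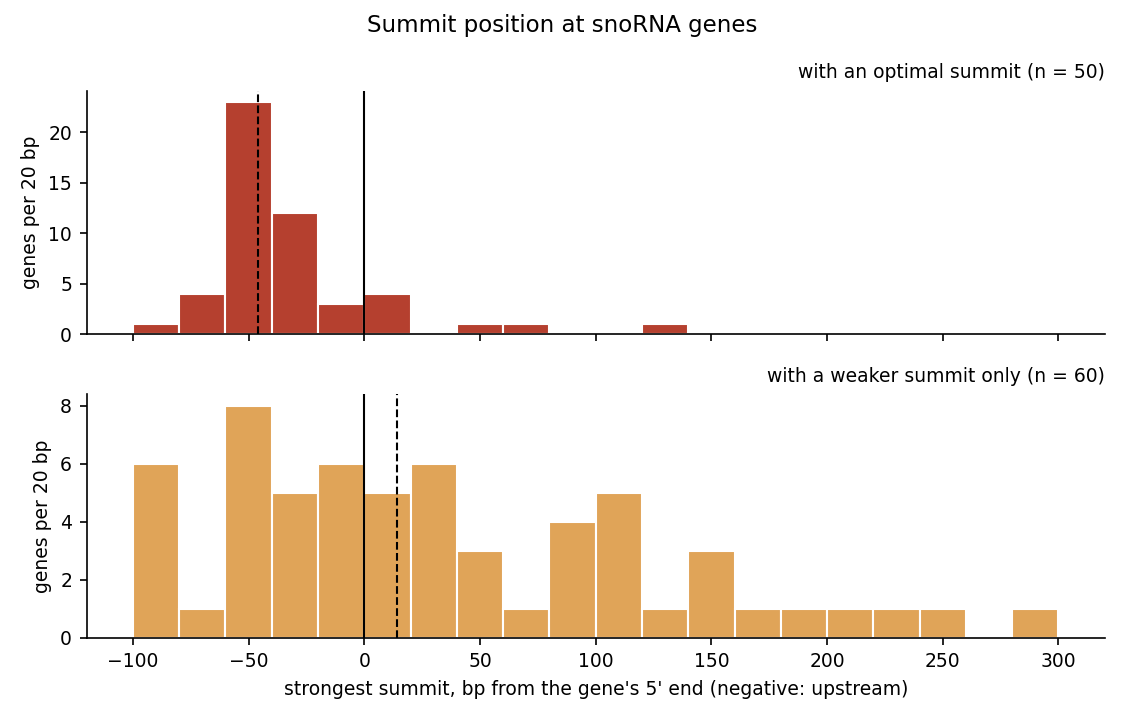
Position of the strongest pooled summit relative to the 5' end of the snoRNA gene, as genes per 20 bp, for the 50 genes with an optimal summit (top) and the 60 with a weaker summit only (bottom). The solid line is the 5' end and the dashed line the median, which is -46 bp at the top and +14 bp at the bottom.

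The tRNA-type boxes were more frequent before the strong genes than before the other sets. An A box was found at 38 of the 50 strong genes (76.0%, exact 95% interval 61.8 to 86.9), 14 of the 60 weak genes (23.3%, 13.4 to 36.0) and 31 of the 236 other snoRNA genes (13.1%, 9.10 to 18.1). A B box was found at 30 (60%, 45.2 to 73.6), 6 (10%, 3.76 to 20.5) and 17 (7.20%, 4.25 to 11.3) of these genes, in the same order. Windows of the same length at the 5' ends of 19973 protein-coding genes held an A box in 5.62% and a B box in 2.47%. The intervals cover counting error only. Base composition also differs between the sets of snoRNA genes, as given below, and its part in the box counts was not tested. Both boxes together were found at 24 strong, 4 weak and 4 other snoRNA genes and at 0.145% of protein-coding starts. A match describes letters and is not evidence of binding by TFIIIC.

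On the opposite strand of the same windows the A box matched at 11 of the 50 strong, 7 of the 60 weak and 32 of the 236 other genes. The strong genes differed from the others mainly on the strand of the gene. With exact spelling an A box was found at 10 strong, 1 weak and 3 other genes, and with 1 difference allowed at 25, 5 and 6. The B box was found in exact spelling at 1 strong, 0 weak and 0 other genes, and with 1 difference allowed at 13, 2 and 5. The B box core GTTCGA alone, searched in the same windows on the strand of the gene, occurred at 18 of the 50, 3 of the 60 and 6 of the 236 genes.

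**Figure D3:**
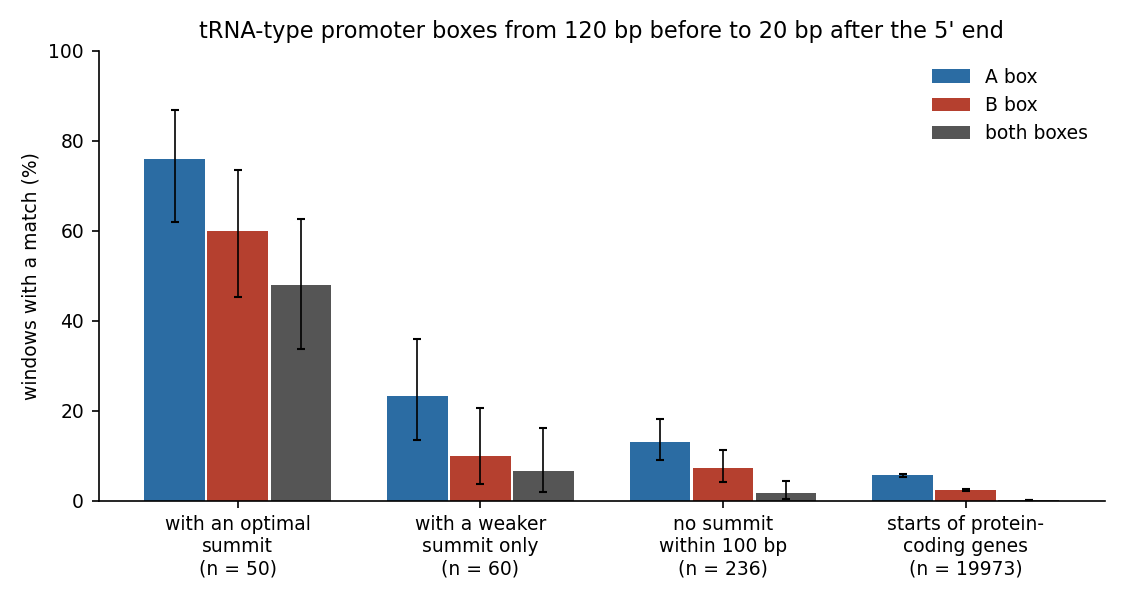
Percentage of 140-base windows, from 120 bases before the 5' end to base 20 of the gene, with an A box, a B box or both on the strand of the gene. Bars are shares and error bars exact 95% intervals; the A box share is 76.0% at the 50 strong genes and 5.62% at protein-coding gene starts.

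Most of the boxes lay at a similar distance from each other. The A box began a median of 58 bases before the 5' end at strong genes, an offset of -58 with quartiles of -62 and -55 over 38 genes. The B box began at a median of -15.5, with quartiles of -20 and -12.25 over 30 genes. Where both were present, the starts lay a median of 44 bases apart, and 43 or 44 bases apart at 18 of 24 strong genes. The range at these strong genes was 32 to 51 bases. Of the 8 weak or other snoRNA genes with both boxes, 7 had the starts 43 or 44 bases apart as well. In 533 nuclear tRNA genes with both boxes, searched from the first base of the gene, the median was 43. The spellings were taken from fixed bases of tRNA genes, so this tRNA value was largely set in advance. The A box lay wholly before the annotated gene at all 38 strong genes that had one, and the B box ran into the gene at 4 of 30. The pooled summit lay between the start of the A box and the end of the B box at 15 of the 24 strong genes with both, and this was so at 13 in replicate 1 and 14 in replicate 2.

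**Figure D4:**
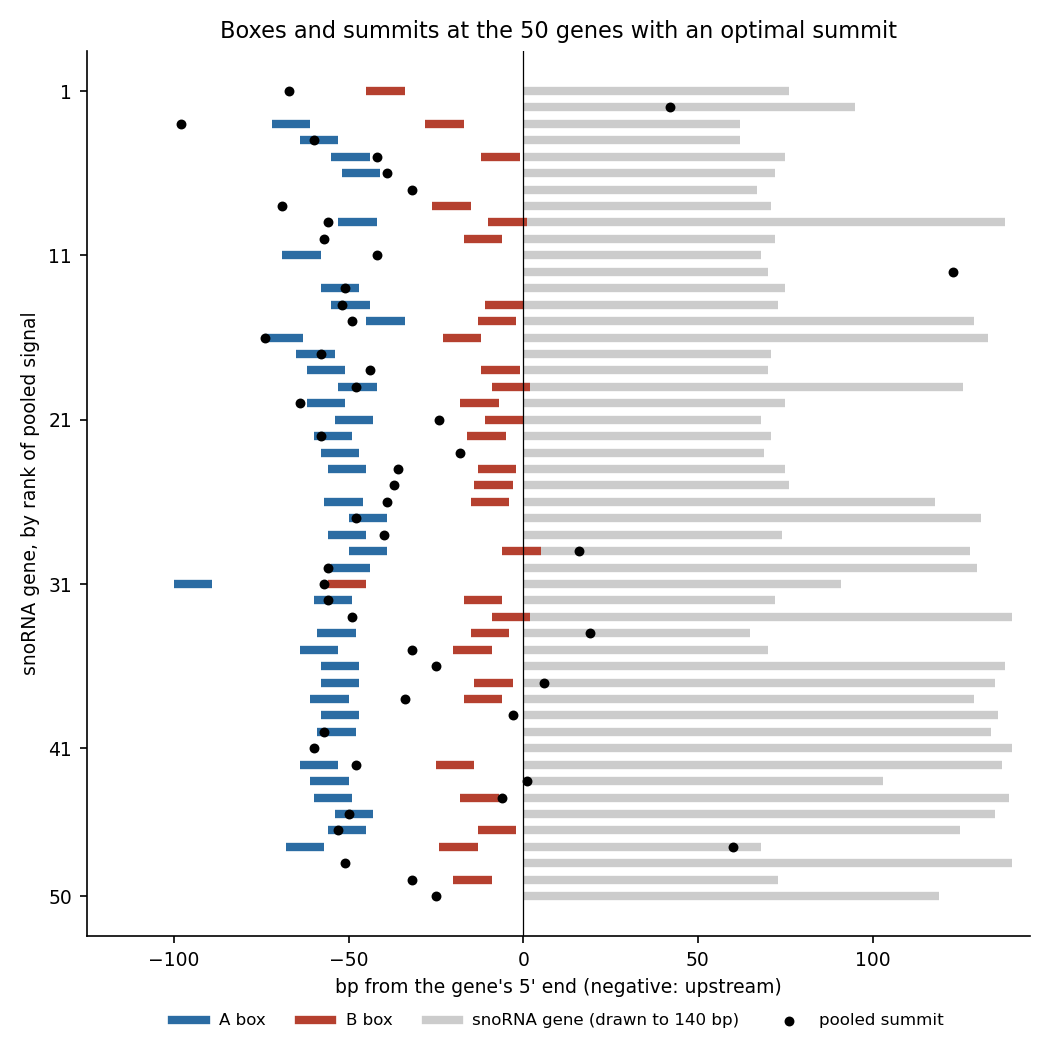
Boxes and pooled summits at the 50 strong snoRNA genes, drawn to scale in bp from the 5' end and ordered by pooled signal. Most A boxes (blue) start between -70 and -45 and most B boxes (red) between -30 and -5, and 43 of the 50 summits (black) lie left of the 5' end.

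The 6 strong genes without a match to either box were C51F7.4, ZK994.7, B0334.12, F59C6.15, F39B2.14 and Y37E3.20. C51F7.4 lies just upstream of C51F7.3, so the summit they share is inside C51F7.4, at +42, and before C51F7.3, at -67. C51F7.3 had a B box starting at -45 and no A box. Conversely, both boxes were present at 4 genes with no pooled summit within 100 bp, F30H5.4, F19H8.6, T23B12.13 and Y59E1B.14, and at the weak genes C53B7.8, R166.7, F11A10.9 and Y75B7AL.9. These were named for their boxes after the values were seen. F30H5.4 had a summit in replicate 2 with a signal of 89.9, which is among the 700 strongest regions of that list, and none in replicate 1 or in the pooled list. At Y75B7AL.9 the boxes stood in reversed order, with the B box upstream.

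Around the summits themselves, the homeodomain core was not frequent. In the 101 bases centred on the strongest summit, on either strand, TAATTA occurred at 0 of the 50 strong genes, which allows a share of up to 7.11% by the exact interval, and at 4 of the 60 weak genes. It occurred at 6.91% of the 463 nuclear optimal summits away from snoRNA, tRNA, snRNA and rRNA genes. That share lies inside the interval of the strong genes. Of the 174 optimal summits at tRNA, snRNA or rRNA genes, 0.575% held TAATTA, so its low count was not particular to snoRNA genes. GTTCGA, in contrast, occurred at 15 of the 50 strong genes, at 1 of the 60 weak genes, at 5.18% of those 463 summits and at 40.2% of the 174 optimal summits at tRNA, snRNA or rRNA genes. Base composition of these summit windows is not given here. The 120 bases before the gene had a median of 54.2% G and C at strong genes, 46.3% at weak genes and 41.7% at other snoRNA genes. The part of base composition in the counts of both cores was not tested.

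The strong genes lay both inside and outside other genes. Of the 50 strong genes, 22 lay inside another annotated gene on its strand, 11 inside a gene on the opposite strand and 17 in no other gene. The weak genes gave 28, 7 and 25 of 60, and the other snoRNA genes 140, 19 and 77 of 236. The share inside a gene on the same strand was 45.5% of the 110 genes (exact 95% interval 35.9 to 55.2) and 59.3% of the other snoRNA genes (52.8 to 65.6). Median pooled signal among strong genes was 202 inside a gene on the same strand, 247 on the opposite strand and 218 in no other gene. These values lay well within the range of each class.

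**Figure D5:**
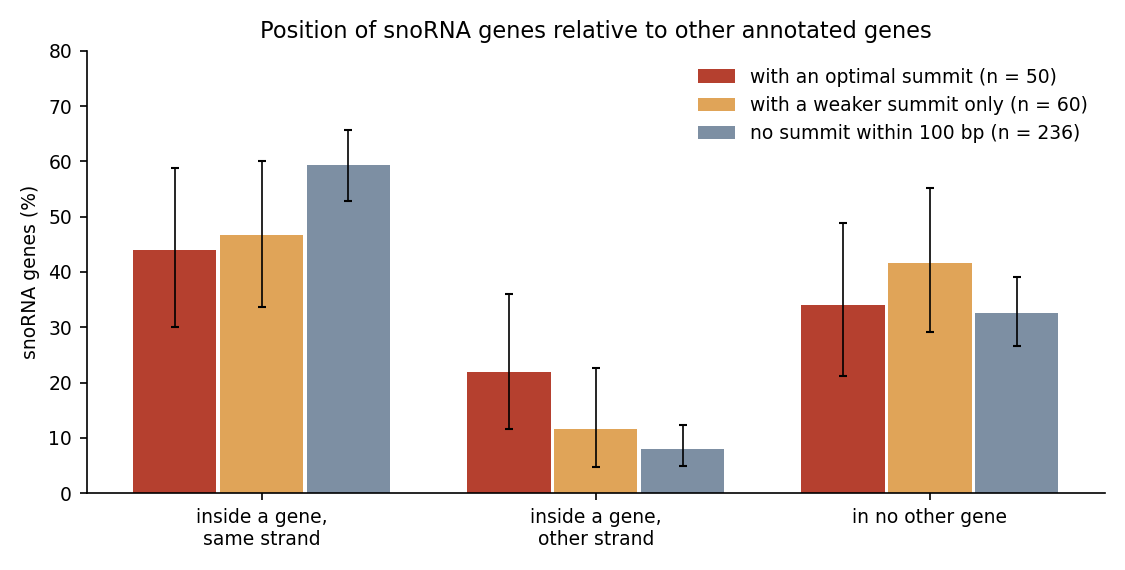
Share of snoRNA genes, in percent, inside another gene on the same strand, inside a gene on the other strand, or in no other gene, for the 50 strong, 60 weak and 236 other genes. Error bars are exact 95% intervals, and those of the 3 sets overlap in each of the 3 classes.

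Among genes in no other gene, W03C9.9, ZK265.10, T06C12.16, T02E1.9 and C46C2.8 had the strongest summits. T06C12.16 had a pooled signal of 557 with its summit at -39, 280 in replicate 1 and 284 in replicate 2. T02E1.9 had a pooled signal of 415 with its summit at -69, 206 in replicate 1 and 202 in replicate 2. C46C2.8 had a pooled signal of 299.7, 158 in replicate 1 and 133 in replicate 2. All 5 are between 62 and 73 bp long. F32E10.10, also in no other gene, had a pooled signal of 278 with its summit at -44.

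On the opposite strand of a gene, T03F7.8 in an intron of cutl-18, which encodes a cuticlin-like protein, had a pooled signal of 558, 274 in replicate 1 and 282 in replicate 2. H09I01.2 had 351, B0334.12 in an intron of the potassium channel gene twk-5 had 336, and C04G6.12 in an intron of the MAP kinase gene mpk-2 had 302. ZK484.9 in an intron of haf-9, an ABC transporter gene, had 253. Splicing of the opposite-strand gene does not yield the snoRNA, since its transcript has the complementary letters. The gene opposite H09I01.2 is annotated as a noncoding RNA, H09I01.4.

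On the same strand as a host, ZK994.7 in an intron of pxn-1, a peroxidasin gene, had a pooled signal of 464, 217 in replicate 1 and 235 in replicate 2. Y43F8C.22 in Y43F8C.7 had 402, 214 in replicate 1 and 189 in replicate 2. C27H6.5 in unc-41, a gene of synaptic vesicle endocytosis, had 337, 160 in replicate 1 and 182 in replicate 2. The hosts were of varied function. D1046.6 (pooled signal 298) lies in cfim-2, a pre-mRNA cleavage factor gene, and C10C6.8 (296) in catp-8, a cation-transporting ATPase gene. F38E11.14 (289) lies in the cyclic nucleotide-gated channel gene cng-3, C05D2.15 (264) in madf-11, and M106.6 (258) in mix-1, which encodes a condensin subunit. The 33 strong genes inside another gene had 32 distinct hosts, and frm-7, a FERM domain gene, was the only host of a pair, C51F7.3 and C51F7.4.

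The median length of intron before the snoRNA gene was lowest at the genes without a summit. The stretch from the upstream exon to the snoRNA gene had a median of 151 bp over 20 strong genes, with a lowest value of 68. It had a median of 285 bp over 19 weak genes and of 76 bp over 106 other snoRNA genes, with lowest values of 24 and 6. At least 80 bp were present at 18 of the 20 strong, 16 of the 19 weak and 51 of the 106 other genes.

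No snoRNA gene in a ribosomal protein gene had an optimal summit within 100 bp. Ribosomal protein genes hosted 19 snoRNA genes in 13 hosts, of which 0 were among the 50 strong genes, 2 among the 60 weak genes and 17 among the 236 others. The exact interval of 0 of 19 reaches 17.6% and includes the 14.5% of all snoRNA genes, so a difference was not detectable with this number. Summits elsewhere in the hosts were not counted, and the pooled summit nearest to F54E7.10 in rps-12, outside 100 bp, had a signal of 74.4. F54E7.10 was named after its value was seen. The 2 were R151.12, with a pooled signal of 29.5, and R151.11, with 26.1, both in rpl-6. The 4 snoRNA genes of nol-56, the gene of a core C/D snoRNP protein, had no pooled summit within 100 bp. C27H5.9 lies in an intron of pdl-1 on the opposite strand, and its summit had a pooled signal of 247. C27H5.10, also inside pdl-1, had none within 100 bp. The lines below show the same window as above for R151.12, for C16A3.11 in rps-13 and for K07C5.10 in nol-56, for contrast with the strong genes, with any box again in capitals.
R151.12, chrIII:7208899-7209038, plus strand: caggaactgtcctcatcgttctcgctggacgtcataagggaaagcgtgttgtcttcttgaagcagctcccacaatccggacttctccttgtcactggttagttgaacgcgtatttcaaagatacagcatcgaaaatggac
C16A3.11, chrIII:6374529-6374668, minus strand: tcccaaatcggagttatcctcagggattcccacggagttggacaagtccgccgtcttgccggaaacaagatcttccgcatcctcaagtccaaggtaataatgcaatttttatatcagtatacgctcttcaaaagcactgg
K07C5.10, chrV:10351334-10351473, minus strand: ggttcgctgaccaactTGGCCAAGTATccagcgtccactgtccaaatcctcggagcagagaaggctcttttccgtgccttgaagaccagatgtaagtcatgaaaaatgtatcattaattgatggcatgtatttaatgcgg
R151.12 and C16A3.11 had no match to either box, and K07C5.10 had 1 A box match with 2 differences, starting at -104.

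The strong genes were shorter. Their median length was 76 bp, against 131 bp for weak genes and 133 bp for other snoRNA genes. Lengths up to 100 bp were found in 28 of 50 strong genes, 17 of 60 weak genes and 50 of 236 others. The 28 short strong genes had a median pooled signal of 283 and the 22 longer ones a median of 143. Both length classes held boxes, with an A box at 20 of the 28 and 18 of the 22.

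Class letters of the snoRNAs were partly present. A C box (TGATGA with at most 1 difference in the first 20 bases) together with a D box (CTGA in the last 16) was found in 14 of 50 strong, 9 of 60 weak and 20 of 236 other genes. ACA in the last 8 bases was found in 18, 15 and 60 of these genes. Among strong genes the C and D boxes fell in 13 of the 28 short genes and 1 of the 22 longer ones, and the ACA tail in 2 and 16. C51F7.3 and W03C9.9, the genes with the strongest and the next strongest summit that carry both, are printed whole, with the C and the D box in capitals.
C51F7.3, chrV:12303708-12303783, plus strand: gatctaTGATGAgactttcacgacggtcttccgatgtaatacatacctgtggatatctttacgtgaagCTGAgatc
W03C9.9, chrII:11960898-11960959, plus strand: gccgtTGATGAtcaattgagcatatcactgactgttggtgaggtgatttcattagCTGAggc
A run of 4 T occurred within 50 bp after the gene at 46 of 50 strong, 44 of 60 weak and 151 of 236 other genes. Inside the gene such a run occurred in 13, 41 and 176 of them, and since the strong genes are shorter, length moves with that count and its part was not tested.

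Chromosome X held 33 of the snoRNA genes. None of the 50 strong genes lay on it, which allows up to 7.11% by the exact interval, against 7 of the 60 weak genes and 26 of the 236 others. The share of all optimal summits on chromosome X is not given here, so this absence is not read as particular to snoRNA genes. The strongest gene on X was D2021.6, with a pooled signal of 53.5, 21.7 in replicate 1 and 30.2 in replicate 2. It was named after its value was seen.

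Genes of snoRNP proteins, which bind snoRNAs into working particles, were looked up together with factors such as the assembly ATPase gene ruvb-2. All are called snoRNP genes here, and a summit was sought from 1000 bp before to 300 bp after a start. The list is mixed, so its counts are not those of snoRNP proteins alone. A pooled summit was found at 10 of 11 listed genes, where 39.9% of all protein-coding genes had one, and an optimal summit at 3, where 2.96% had one. The 3 were fib-1, the methyltransferase of C/D particles, with a pooled signal of 102.7, 93.5 in replicate 1 and no summit in replicate 2. Y48A6B.3, an H/ACA protein gene, had 73.5, 31.5 in replicate 1 and 39.5 in replicate 2. ruvb-2, an assembly ATPase gene, had 73.4, 52.2 in replicate 1 and 21.9 in replicate 2. All 3 lay below the median of the strong snoRNA genes.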

How the data were processed

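Chromatin recovered with GFP-tagged TTX-3 from whole late embryos was sequenced in 2 biological replicates of 1 group, according to the labels. The deposited files are the authors' peak lists, where each region has a signal, the strength their caller assigned, a −log10 q-value and a summit. There is 1 list of 30000 regions per replicate, 1 for the pooled replicates and 1 of 700 optimal IDR-thresholded regions. For aligner, caller and IDR cutoff, names and versions were not given in sources used here. The lists hold no read counts, so depth is unknown.

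Summits on ce11 were set against the WBcel235 genome (RefSeq) and the genes of Ensembl release 115; the ce10 lists were not used. The strongest summit within 100 bp of a gene was taken in each list. A host is any other annotated gene that holds the whole snoRNA gene. Shares have exact Clopper-Pearson 95% intervals, which cover counting error only. No test was made: the 110 genes were chosen on pooled signal and 1 group gives no contrast. The genes and lists were chosen with earlier results of these data known. Genes named were the 20 strongest, the 5 strongest of each position class, the 3 weakest, the 3 nearest outside the rule, the extremes of the replicate ratio, snoRNA genes of the same hosts and snoRNP genes with an optimal summit; others were named after their values were seen. The code was tested on simulated data. Python 3.11.15, numpy 2.4.6, pandas 2.3.3, scipy 1.17.1, pysam 0.24.0 and matplotlib 3.10.9 were used.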

Additional observations from a re-analysis of the deposited data

How the results depend on the processing

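With 56 alternatives run over all results, 0 changed sign, but only the median offset could have done so. Counts within 1.5 times the reported count, and other values within 1 SD between the replicates or their exact interval, were taken as unmoved, which left 39 unmoved and 17 moved. Leaving out members at tRNA, snRNA or rRNA genes removed no gene, so those alternatives, counted as unmoved, could not move. The number of snoRNA genes was 110, and 77 with summits within 50 bp, 131 within 200 bp, 89 with the 15000 stronger regions, 134 by overlap of the region and 50 with the optimal list alone. The median offset was -6 bp with summits within 50 bp, -33 bp within 200 bp, -36 bp with the 15000 stronger regions and -46 bp with the optimal list, against -28.5 bp for all 110 genes, and between -33 and -28 bp with either replicate left out. The median pooled signal was 45.1, 43.996, 98.2 and 219.8 in the same order, against 53.3, and between 28.0 and 30.2 with either replicate left out, where the scale of the list itself differs. Genes inside a gene made up 61.8% of the 110 when either strand counted. GTTCGA lay at 30% of summits with the optimal list and at 3.64% within 25 bp of the summit, against 14.5%. With 1 difference allowed per box, 14% of the strong genes had both, against 48%. With either replicate left out, between 1 and 2 snoRNP genes had a summit among the 700 strongest, 1 without replicate 1 and 2 without replicate 2. Among the 700 strongest summits of each replicate alone, 48 of the 50 strong genes were found in replicate 1, 47 in replicate 2 and 45 in both. No paired analysis was possible because there is only 1 group. The unknown depth sets no limit that can be stated for genes without a summit.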

Other observations

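A few snoRNA genes had a summit in a replicate list and none within 100 bp in the pooled list. Of the 236 other snoRNA genes, 23 had a summit in replicate 1, 20 in replicate 2 and 4 in both. The highest values were at F30H5.4, with 89.9 in replicate 2 and no summit in replicate 1, and at C14C10.8 in ril-2, with 33.9 in replicate 1 and 63.7 in replicate 2. The nearest pooled summit lay 1546 bp from F30H5.4 and 2440 bp from C14C10.8. C14C10.8 matched the A box in full, starting at -67, and had no B box. The sources used here do not state how regions were kept in the pooled list, so a gene counted among the 236 is one without a pooled summit within 100 bp, not one without signal in the replicates. These genes were picked after their values were seen.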
